A study of Mus musculus with 1 sample.

Results

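The genes described here handle zinc, heme and iron in alveolar macrophages (AMs), the resident macrophages of the lung airspaces. They are 10 genes fixed by name. Mt1, Mt2, Slc39a1 and Slc30a1 handle zinc, Hmox1 and Blvrb handle heme, Fth1, Ftl1 and Slc40a1 handle iron, and Nfe2l2 encodes a transcription factor that acts on genes of these pathways. All 10 are among the 11918 genes measured, and 9 of them had a unique molecular identifier (UMI, a tag that marks a single captured transcript) in at least 10% of cells. The cells came from a single library of CD45+CD11c+SiglecF+ cells sorted from lung. The mouse was labelled wild-type, of 8 to 12 weeks, on FVB/NJ backcrossed to C57BL/6. The paper gives its genotype as Hdac3fl/fl without Cre. The floxed alleles are thus present in every cell measured. The library of mice with Hdac3 deleted was not analysed here. With 1 library there is no replicate of the mouse and no test between groups, and the intervals given are 95% and cover counting error only.

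Metallothioneins are small cysteine-rich proteins that bind zinc and copper, and their genes are induced by zinc through the factor MTF1 at metal response elements (MREs). Heme oxygenase 1 opens the heme ring and frees iron, carbon monoxide and biliverdin, and ferritin cages made of heavy and light chains store the iron that is not exported through ferroportin. Macrophages recycle iron from engulfed red cells, and AMs in addition meet inhaled metal and the oxidants of the airspace.

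Mt2 and Mt1 lie next to each other on chromosome 8 of GRCm38 on the + strand, Mt2 at chr8:94172664-94173568 and Mt1 at chr8:94179082-94180327, with 5513 bases between them (GENCODE M21). Their upstream sequences are shown because the pair shared the highest correlation of any zinc genes here and MRE letters are what the pair is known for. They were taken from RefSeq (GRCm38.p6) and end before the earlier of the RefSeq and GENCODE starts. Capitals mark TGCACNC or TGCGCNC on either strand, the MRE letters searched, and in Mt2 also TGACTCAGC, which matches TGACNNNGC, the letters searched for an antioxidant response element (ARE). No capital stretch matched both MRE and ARE letters, and letters of other factors were not searched in these windows.
Mt2, chr8:94172368-94172617, + strand: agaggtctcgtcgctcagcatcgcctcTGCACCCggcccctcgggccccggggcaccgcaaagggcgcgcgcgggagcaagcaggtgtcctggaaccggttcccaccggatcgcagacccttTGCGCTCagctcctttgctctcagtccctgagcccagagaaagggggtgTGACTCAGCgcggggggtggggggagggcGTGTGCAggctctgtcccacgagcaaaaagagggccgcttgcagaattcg
Mt1, chr8:94178839-94179081, + strand: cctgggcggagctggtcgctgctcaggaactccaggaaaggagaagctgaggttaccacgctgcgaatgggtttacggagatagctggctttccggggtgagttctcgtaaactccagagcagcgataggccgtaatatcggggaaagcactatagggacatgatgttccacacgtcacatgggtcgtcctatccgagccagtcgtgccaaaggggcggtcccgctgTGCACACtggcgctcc

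The Mt2 window held 3 MRE matches and the Mt1 window 1. Of 32851 RefSeq promoters read over the 250 bases before their start, 21.4% held at least 1 match and 1.26% at least 3, while 10.2% held the ARE letters. Further matches lay past the annotated starts. The longest GENCODE leader (the transcript before the coding sequence) of Mt1, of 229 bases, held 4. Of the 10061 genes with a leader at least as long, 0.278% held 4 or more in its first 229 bases. The leader of Mt2, of 184 bases, held 3, and 0.734% of 11983 such genes held 3 or more in as many bases. The starts used in these cells were not measured, so it is not known whether these matches lie in promoter or mRNA. ARE letters were not searched in the leaders. A stretch of each leader that holds 2 MRE matches is shown.
Mt1, chr8:94179091-94179120, + strand: TGCACTCcgcccgaaaagTGCGCTCggctc
Mt2, chr8:94172676-94172705, + strand: GTGTGCAggcggcgggggcGCGTGCAtggt

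RefSeq promoters were found for 8 of the 10 members, and none for Hmox1 and Slc40a1. Among the 8 promoters of Slc39a1, Slc30a1, Blvrb, Fth1, Ftl1 and Nfe2l2 (Blvrb and Fth1 have a pair each), 1 held MRE letters, that of Slc30a1. The ARE letters were in those of Slc30a1, Slc39a1 and Nfe2l2. The match of letters is a description and does not show that a factor binds.

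The 3 iron genes share another sequence, the loop of the iron-responsive element, through which iron regulatory proteins block translation of ferritin and ferroportin mRNA when iron is scarce. It is shown because this control acts on protein output and UMIs count only mRNA. In the GENCODE transcripts, capitals mark a C, 5 further bases and CAGTG with a last base other than G. Of 21181 genes with an annotated leader, 8.98% held these letters in at least 1 leader, and of the 10 members 3 did.
Fth1, bases 86 to 112 of the transcript: tttcctgCTTCAACAGTGCttgaacgg
Ftl1, bases 77 to 103 of the transcript: tgtcttgCTTCAACAGTGTttgaacgg
Slc40a1, bases 89 to 115 of the transcript: ccaacttCAGCTACAGTGTtagctaag

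The table held 7222978 UMIs in 2055 cells. A cell had a median of 3278 UMIs (1143 to 8603). The methods describe a limit of 5% on mitochondrial content, but 384 cells lay over it and 1671 within it. Markers of the labelled cell type were present. Of 16 alveolar macrophage markers 15 were in the table and all 15 had a UMI in at least 10% of cells, led by Chil3 at 135.9 UMIs per 10000. None of the 10 erythroid markers was in the table, so that red cell RNA could not be assessed. Of the neutrophil markers S100a9, Ly6g, Retnlg, Ngp and Camp were not in the table and S100a8 had 278 UMIs in 10.1% of cells. Of the lymphocyte and plasma cell markers 3 of 11 were in the table, led by Jchain with 1006 UMIs in 3.21% of cells. Epithelial genes that macrophages should lack had a UMI in 6.86% (Sftpc), 5.50% (Scgb1a1), 1.41% (Sftpa1) and 0.389% (Sftpb) of cells. Epcam, on the same list of markers, had 2178 UMIs in 58.1% of cells, and whether AMs express it was not tested. The source of these UMIs was not tested. The epithelial, neutrophil, lymphocyte and plasma cell, and monocyte and interstitial macrophage lists had correlations between -0.0690 and 0.0524 with the zinc, heme and iron sums defined below. Because the assay counts 3' ends, levels are UMIs of a gene per 10000 UMIs and need no division by length. Fewer transcripts per cell and a larger total from other genes cannot be told apart in such shares.

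The 10 genes took 3.80% of all UMIs (274364 UMIs). Iron genes held 85.0% of these UMIs, zinc genes 11.1%, heme genes 3.31% and Nfe2l2 0.588%. The share of a cell's UMIs on the 10 genes had a median of 3.61% over cells, a 5th percentile of 2.18% and a 95th of 5.91%. It ran from 0.831% in the lowest cell to 13.2% in the highest. Most of what these genes contributed to the transcriptome was therefore ferritin, with metallothionein next.

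**Figure D1:**
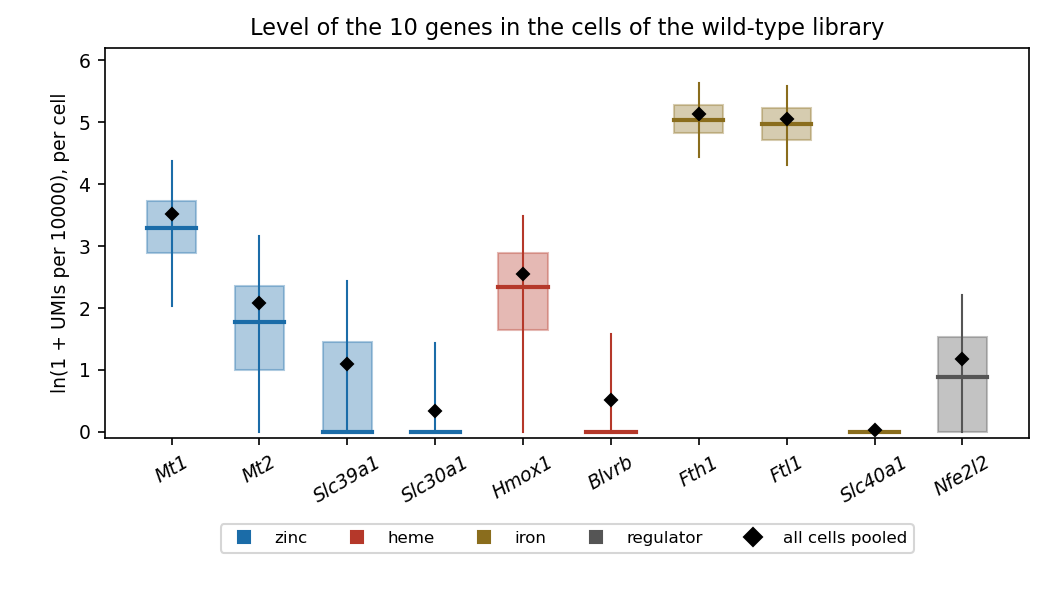
Level of each gene per cell, as ln(1 + UMIs per 10000); boxes span the 25th to 75th percentile of the 2055 cells with the median as a line, whiskers the 5th to 95th, and diamonds give all cells pooled. Fth1 and Ftl1 sit at the top with narrow boxes, Mt1, Hmox1 and Mt2 follow, and Slc40a1 sits at 0.

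Fth1 (chr19:9980598-9985098, + strand), the ferritin heavy chain that oxidises iron for storage, ranked 2 among all genes by UMIs. Its pooled level was 168.4 UMIs per 10000 (167.4 to 169.3), and every cell had at least 1 UMI. Over cells the level ran from 25.3 to 796.2, with a median of 154.2. Ftl1 (chr7:45457944-45459884, - strand), the light chain that forms the mineral core, ranked 5 with 154.4 per 10000 (153.5 to 155.3). It too was found in every cell, from 5.95 to 691.3 with a median of 143.9. As counted, the ratio of Fth1 to Ftl1 UMIs was 1.09 pooled, and over cells it had a median of 1.09 with 5th and 95th percentiles of 0.583 and 2.00.

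The Ftl1 count is uncertain because a near-identical gene copy is counted beside it. Of all runs of 98 bases, the read length, within the final 300 bases of Ftl1 transcripts, 50.3% also occur in another gene, among them the retrocopy Ftl1-ps1 on chromosome 13, which the table lists under its synonym Gm10116. Reads that map to more than 1 gene are commonly dropped or split. Gm10116 had a UMI in 90.9% of cells, and Ftl1 had 13.4 UMIs for each of its UMIs. For Fth1 the shared part was 1.76%, and for each of the other 8 members 0%.

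Slc40a1 (chr1:45908068-45926523, - strand), which encodes ferroportin, the iron exporter, was near 0. It had 19 UMIs, a single one in each of 19 cells, or 0.925% of cells (Wilson interval 0.593 to 1.44). This share lies within the range of the epithelial surfactant genes given above, so these UMIs cannot be told from such a background. Of genes that mark other lung macrophages and monocytes, the 19 cells held 32 UMIs of Apoe, in 5 of them, or 4.28 per 10000 against 0.564 in the other cells, and 6 of Csf1r, or 0.803 against 0.533. C1qa, C1qb, Ccr2 and Cx3cr1 were at 0 there, but they were rare in all cells. The Fth1 level of the 19 cells was 164.9 per 10000 against 168.4 in the other cells.

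Mt1 was the highest zinc gene, at 32.9 UMIs per 10000 (32.5 to 33.3) and rank 26. It had a UMI in 98.6% of cells, with a median of 26.1 per 10000, a 95th percentile of 78.0 and a highest cell of 296.7, and no cell held more than 139 UMIs of it. Mt2 stood at 6.97 per 10000 (6.78 to 7.17) and rank 222, with a UMI in 76.4% of cells and a highest cell of 68.5. Mt1 thus had 4.72 UMIs for each UMI of Mt2. Slc39a1 (chr3:90248172-90253612, + strand), the zinc importer ZIP1, had 2.01 per 10000 (1.91 to 2.12) and a UMI in 39.0% of cells. Slc30a1 (chr1:191906767-191913247, + strand), the exporter ZnT1 and a known target of MTF1 like the metallothioneins, had 0.389 (0.345 to 0.437) and a UMI in 12.4% of cells.

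Hmox1 (chr8:75093621-75100589, + strand), heme oxygenase 1, ranked 115 at 11.9 UMIs per 10000 (11.6 to 12.1). It had a UMI in 87.1% of cells, with a median of 9.29, a 95th percentile of 31.6 and a highest cell of 152.3. Blvrb (chr7:27447978-27466144, + strand), a biliverdin reductase that acts after it, had 0.684 (0.625 to 0.747) and a UMI in 20.2% of cells. Nfe2l2 (chr2:75675513-75704641, - strand), which encodes NRF2, had 2.23 (2.12 to 2.34) and a UMI in 50.5% of cells. In pooled level the order was Fth1, Ftl1, Mt1, Hmox1, Mt2, Nfe2l2, Slc39a1, Blvrb, Slc30a1 and Slc40a1. No neighbouring counting intervals in this order overlapped, but per-cell ranges of neighbours overlapped throughout. The order of Fth1 and Ftl1 is uncertain, because reads of Ftl1 shared with its copies may be missing from its count.

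The genes differed in how far cells departed from counting error. This spread is given as the excess coefficient of variation (CV, the SD between cells over the mean after the counting variance is removed). It was 0.365 for Fth1 and 0.392 for Ftl1, against 0.746 for Mt1, 0.905 for Mt2 and 0.725 for Hmox1. Slc39a1 had the widest spread at 1.11, and of the 4023 genes detected in at least 10% of cells 2.09% had a wider one. For Mt2 and Mt1 those shares were 3.70% and 7.21%, for Hmox1 7.98%, and for Fth1 45.6%. The spread of Slc30a1 (0.638), Blvrb (0.678) and Nfe2l2 (0.415) rests on 281, 494 and 1612 UMIs, and their variance was 1.07, 1.13 and 1.16 times that of counting alone. Relative to its mean, ferritin thus varied less between cells than Mt1, Mt2 and Hmox1. Its variance was nonetheless 10.2 (Fth1) and 10.8 (Ftl1) times that of counting, since its counts are high.

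Whether the zinc, heme and iron genes varied together was measured by Pearson's r of ln(1 + UMIs per 10000) over the 2055 cells. The cells share a library and differ in depth, so r is a description. Of the 45 pairs 8 had r of at least 0.1 and none had -0.1 or less. Among all 8090253 pairs of genes detected in at least 10% of cells, 0.353% had r of at least 0.1. All 8 pairs lay among the 5 genes Mt1, Mt2, Hmox1, Fth1 and Ftl1, which are also the 5 with the most UMIs. Sparse counts lower r, so a value near 0 for Slc30a1, Blvrb or Slc40a1 says little. Blvrb had 0.0787 with Fth1 and 0.0791 with Ftl1, and between -0.00639 and 0.0486 with the other members. The 99th percentile of r over all pairs of genes detected in at least 10% of cells was 0.0768.

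**Figure D2:**
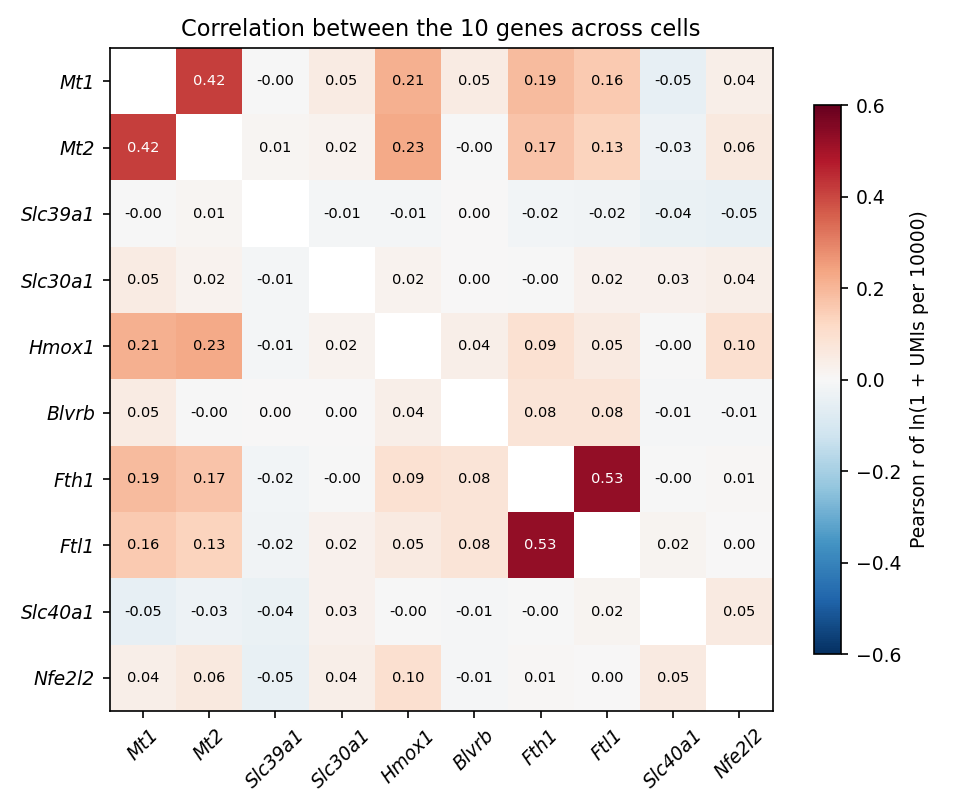
Pearson r of ln(1 + UMIs per 10000) over 2055 cells for each pair of the 10 genes, from blue (negative) to red (positive). The darkest squares are Fth1 with Ftl1 (0.527) and Mt1 with Mt2 (0.416), and the rows of Slc39a1, Slc30a1 and Slc40a1 are pale.

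The closest pair was Fth1 and Ftl1, the chains of 1 cage, with r = 0.527. With Gm10116 added to Ftl1 it was 0.526. The metallothioneins came next (r = 0.416). After counting variance was removed, the correlation of the shares of Mt1 and Mt2 was 0.870 and that of Fth1 and Ftl1 was 0.661. Mt1 and Mt2 were linked to Hmox1 at r = 0.214 and 0.226, to Fth1 at 0.192 and 0.172, and to Ftl1 at 0.157 and 0.132. Hmox1 was less tied to ferritin, at 0.0908 with Fth1 and 0.0529 with Ftl1. Its r with Nfe2l2 was 0.0958, and Nfe2l2 lay between -0.0465 and 0.0958 with every other member. Nfe2l2 is sparse, and with counting variance removed the value was 0.283 with Hmox1 and 0.193 with Mt2, against 0.332 for Mt1 with Hmox1.

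By groups, the zinc sum had r = 0.236 with the heme sum (Hmox1 and Blvrb) and 0.206 with the iron sum, and the heme and iron sums had 0.0920. The zinc sum is mostly metallothionein and the heme sum mostly Hmox1. Of the 3 relations, those that include metallothionein were thus the higher. In the deposited scores, averaged over the genes of a group so that each gene counts alike, the same values were 0.145, 0.121 and 0.0937.

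Mitochondrial content was lower in cells with more ferritin and, more weakly, in cells with more Mt1 and Hmox1. The r with the percent of mitochondrial UMIs was -0.234 for Fth1, -0.219 for Ftl1, -0.124 for Mt1 and -0.0629 for Hmox1, and with the log of UMIs per cell 0.152, 0.0423, 0.115 and 0.131. The r of Fth1 and Ftl1 was 0.496 in the 1671 cells within the 5% limit and 0.530 in the deposited scores, from which mitochondrial content and depth had been regressed. With 2000 UMIs drawn from each cell that had them, it was 0.474, and that of Mt1 and Mt2 was 0.339.

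Ordering the cells by their share of UMIs on Mt1 and Mt2 shows how far Hmox1 and ferritin followed. In the lowest decile of cells (8.27 UMIs per 10000 on the pair, mean over cells) Hmox1 stood at 6.92 (6.29 to 7.60) and in the highest decile (113.6) at 17.8 (16.8 to 18.9). From the fourth to the ninth decile it stayed between 11.4 and 13.1, so that the change lay at the ends. Fth1 went from 146.4 (143.4 to 149.4) to 190.8 (187.5 to 194.1) and Ftl1 from 144.0 (141.1 to 147.0) to 176.1 (173.0 to 179.3). Nfe2l2 was 2.30 at the low end and 2.25 at the high end, and Slc39a1 2.21 and 2.42, with intervals that overlap. Between the ends both moved without a steady direction. Slc39a1 was 2.50 (2.14 to 2.92) in the second decile and 1.59 (1.32 to 1.90) in the seventh. Nfe2l2 was 1.90 (1.60 to 2.24) in the third and 2.56 (2.21 to 2.95) in the eighth. The lowest decile was also shallower, with a median of 2784.5 UMIs per cell against 3203 in the highest and 3.87% mitochondrial UMIs against 3.26%; their part in the result was not tested.

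**Figure D3:**
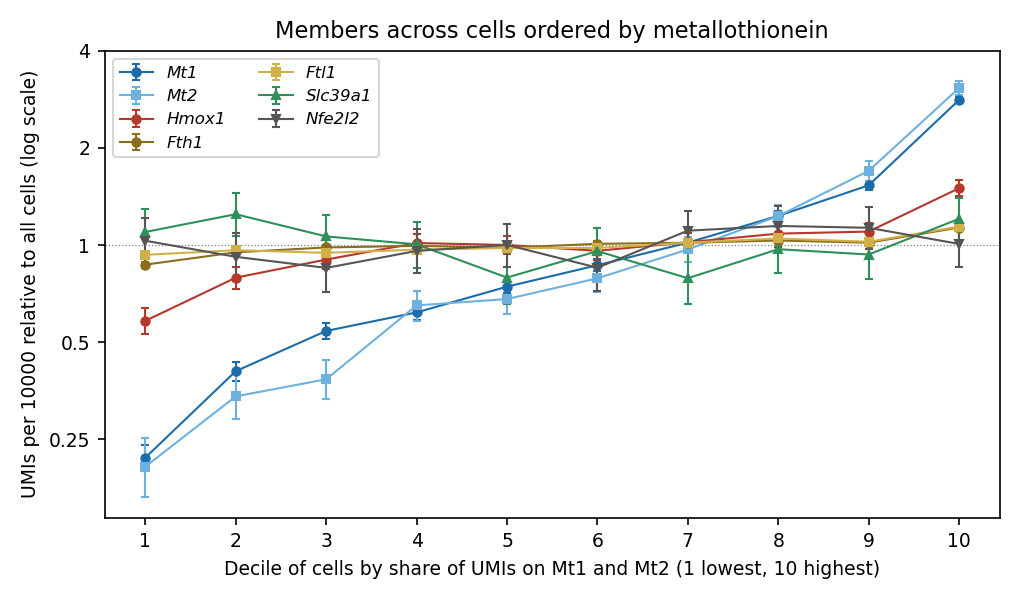
Level of 7 genes in deciles of the cells ordered by UMIs on Mt1 and Mt2, relative to all cells on a log scale, with 95% counting intervals. Mt1 and Mt2 order the cells and so increase by construction. Hmox1 goes from 6.92 to 17.8 UMIs per 10000, and Fth1 and Ftl1 follow weakly. Slc39a1 and Nfe2l2 have overlapping intervals in the lowest and highest deciles and move without a steady direction between them.

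Ordered instead by ferritin (Fth1 and Ftl1), the lowest and highest deciles had Mt1 at 26.7 and 40.5 per 10000, Mt2 at 5.59 and 9.60, and Blvrb at 0.491 and 1.02. Hmox1 was 10.3 and 11.7. The lowest decile had a median of 2504.5 UMIs and 4.60% mitochondrial content, against 3526 and 3.06%, and the part of these was not tested.

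The genes most like each member across cells, by r among the 4023 genes detected in at least 10% of cells, were as follows. Mt1 was closest to Mt2, Hmox1, Cdkn1a (0.206), a cell cycle inhibitor, Fth1 and Hilpda (0.175), a lipid droplet gene. Mt2 was closest to Mt1, Hmox1, Nfkbia (0.174), the inhibitor of NF-kB, Tnf (0.172) and Fth1. Hmox1 was closest to Nr4a1 (0.227), an immediate-early gene, then Mt2, Mt1, Cdkn1a (0.210) and Sqstm1 (0.197), which encodes the autophagy adaptor p62. Mt1, Mt2 and Hmox1 were thus each among the 5 nearest genes of the other two.

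Fth1 was closest to Ftl1, Gm10116 (0.301), Rpl10 (0.195), Lgals3 (0.193) and Mt1. Ftl1 was closest to Gm10116 (0.544), Fth1, the lysosomal protease Ctsd (0.225), Tmsb10 (0.216) and Lgals3 (0.213). The r of Ftl1 with Gm10116, and so that of Fth1 with Gm10116, is uncertain for the reason given above. With counting variance removed Gm10116 had 1.02 with Ftl1 and 0.624 with Fth1, near the 0.661 of Ftl1 with Fth1. Blvrb was closest to Prdx1 (0.121), Lipa (0.110), Lyz2 (0.0960), Npc2 (0.0956) and Atox1 (0.0938), of which Lipa, Lyz2 and Npc2 encode lysosomal proteins. Nfe2l2 was closest to Tlr2 (0.113), Nfkbia (0.104), Cxcl2 (0.101), Eif4e (0.0991) and Ntan1 (0.0978). The 5 nearest genes of Slc30a1, namely Cd44, Bptf, Mrpl28, Acp1 and Rela, were all between 0.0801 and 0.0961.

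Slc39a1 had no r of at least 0.1 with another member, and neither had the sparser Slc30a1 (-0.00990 to 0.0485). The r of Slc39a1 with the other 9 members lay between -0.0465 and 0.0113, with the metallothioneins at -0.00252 (Mt1) and 0.0113 (Mt2). Its nearest gene was Actb (r = 0.550), which encodes beta-actin, followed by Pim1 (0.334), Notch2 (0.299), Rpgrip1 (0.250) and Insig1 (0.237). With counting variance removed the correlation with Actb was 0.929. None of the 98-base runs at the 3' ends of Slc39a1 or Actb occurs in another gene. Only exact matches to annotated transcripts were sought, and the source of the correlation was not tested.

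In the decile of cells lowest in Actb (32.3 UMIs of Actb per 10000), Slc39a1 stood at 0.553 (0.397 to 0.750) with a UMI in 18.9% of cells. It was 0.678 in the fifth decile, 1.47 in the seventh and 3.30 in the eighth. In the decile highest in Actb (535.4 per 10000) it was 7.20 (6.55 to 7.90), with a UMI in 84.9% of cells. Most of the Slc39a1 signal thus lay in the 3 highest deciles. Pim1 went from 1.94 to 10.6 and Notch2 from 0.364 to 3.30 between the lowest and highest deciles, while Mt1 went from 36.6 to 28.3. The highest decile was shallower, with a median of 2878 UMIs per cell against 3523.5 in the lowest, and mitochondrial content was 3.22% against 3.40%; their part in the result was not tested.

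**Figure D4:**
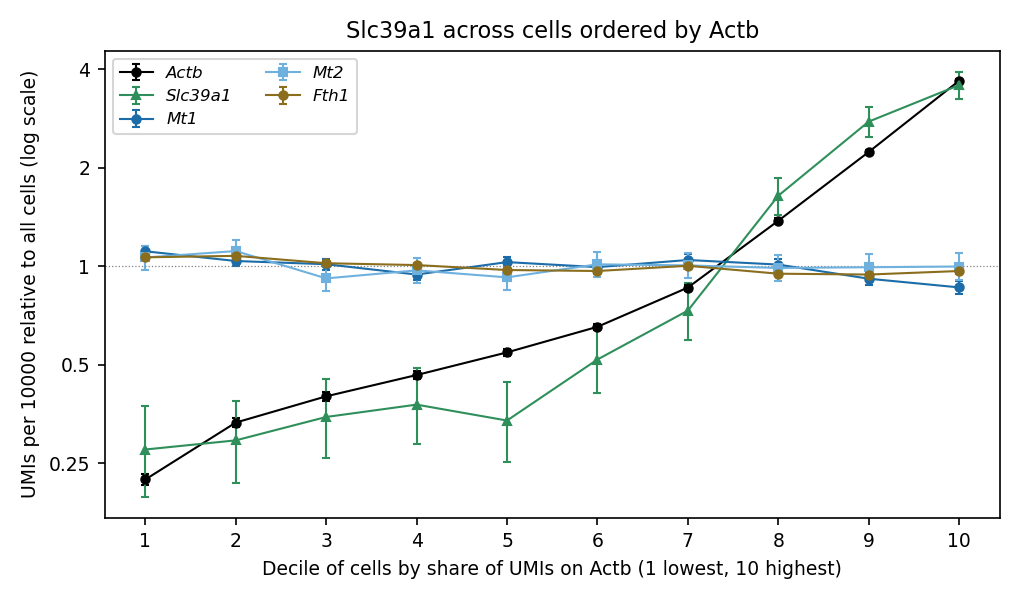
Level of 5 genes in deciles of the cells ordered by UMIs on Actb, relative to all cells on a log scale, with 95% counting intervals. With Actb, Slc39a1 goes from 0.553 to 7.20 UMIs per 10000, chiefly above the seventh decile. Mt1 goes from 36.6 to 28.3 and Fth1 from 179.3 to 162.8, while Mt2 stays near its level over all cells.

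The paper describes AM subsets by genes of cytokines, MHC class II and proliferation. The 103 cells (5%) with the highest share of UMIs on each list were compared with the other 1952, on pooled levels, and a ratio of at least 1.5 in either direction was counted among the 9 members detected in at least 10% of cells. Cluster labels were not used.

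In the cells highest in cytokine genes (Tnf, Il1a, Cxcl1, Cxcl2 and Cxcl3), metallothionein was higher. Mt2 was at 15.4 UMIs per 10000 against 6.48, a ratio of 2.38 (2.19 to 2.59), and Mt1 at 51.0 against 31.9, a ratio of 1.60 (1.53 to 1.67). Median Mt2 was 12.7 per cell in these cells and 4.66 in the others. The ranges of cells still overlapped, with a lower quartile of 6.58 in the cytokine-high cells and an upper quartile of 9.15 in the rest. These were 2 of 9 members, and of all 4020 genes compared 3.33% were at least 1.5-fold higher. Hmox1 was 1.31 times (1.21 to 1.43), Nfe2l2 1.24 times (1.01 to 1.504) and Fth1 1.12 times (1.10 to 1.15) the level of the other cells. On the lower side were Slc30a1 at 0.444 times (0.177 to 0.927, 7 UMIs) and Blvrb at 0.620 times (0.358 to 1.00, 17 UMIs), where 9.18% of all genes were at least 1.5-fold lower. The count of 4 members depends on the cells taken. It was 1 (Mt2) in the highest 10% of cells and 0 in the 702 cells with at least 3 UMIs on the list.

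In the cells highest in MHC class II genes (Cd74, H2-Aa, H2-Ab1 and H2-Eb1) no member was past 1.5-fold, where 1.64% of all genes were higher and 9.60% lower. Mt1 (ratio 1.03, 0.970 to 1.09), Mt2 (0.997, 0.879 to 1.13) and Ftl1 (0.983, 0.958 to 1.01) had intervals that include equal levels. Fth1 was at 1.08 times (1.05 to 1.10), and Slc39a1 at 0.766 times (0.582 to 0.989). Hmox1 was at 0.780 times (0.700 to 0.866) and Blvrb at 1.37 times (0.949 to 1.93). With 2000 UMIs drawn per cell the count was 2, with Blvrb higher and Slc39a1 lower.

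In the cells highest in proliferation genes (Stmn1, Birc5, Top2a and Rrm2) ferritin was lower and metallothionein higher, though none passed 1.5-fold. Ftl1 was at 109.9 per 10000 against 157.4, a ratio of 0.698 (0.679 to 0.718), and Fth1 at 131.7 against 170.8, a ratio of 0.771 (0.751 to 0.791). Mt2 was at 1.33 times (1.20 to 1.47) and Mt1 at 1.20 times (1.14 to 1.26). These cells were deeper, with a median of 4446 UMIs against 3237.5, and the part of depth was not tested. Of all genes 9.25% were at least 1.5-fold higher here and 9.15% lower.

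**Figure D5:**
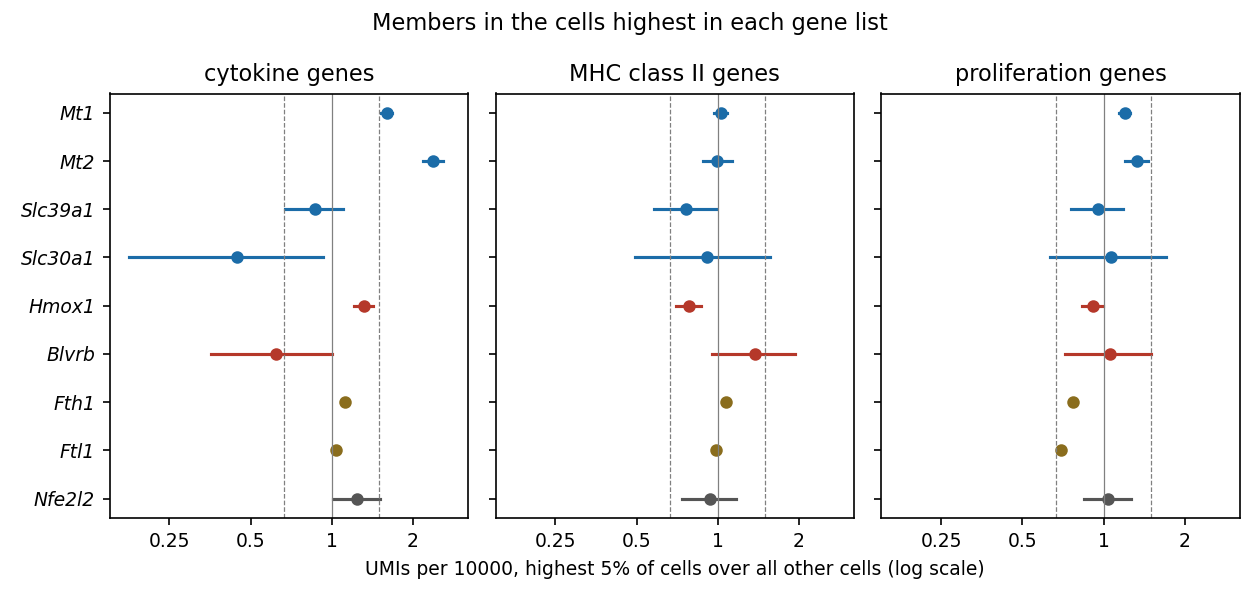
Ratio of each gene's pooled UMIs per 10000 in the 103 cells highest in a gene list to the other 1952 cells, on a log scale, with 95% counting intervals and dashed lines at 1.5-fold either way. Mt2 and Mt1 are to the right in the cytokine panel (2.38 and 1.60), and Ftl1 and Fth1 to the left in the proliferation panel (0.698 and 0.771).

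Other genes of the same pathways were measured in 4 lists. Of 29 other zinc and copper genes 24 were in the table and 8 had a UMI in at least 10% of cells. The 3 with most UMIs were the copper chaperones Atox1 (7.75 per 10000) and Cox17 (4.22) and the zinc transporter Slc39a2 (0.959). None of the 8 had r of at least 0.1 with the zinc sum, a value that 0.946% of 4019 genes reached. Atox1 had 0.133 with the iron sum, a value of 0.1 or more being reached by 2.46% of genes. Mt3, Mt4, Slc30a3, Slc30a10 and Atp7b were not in the table.

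Of 27 other heme genes 22 were in the table, led by the heme-binding protein Hebp1 (6.00 per 10000), Blvra (2.36) and the hemopexin receptor Lrp1 (1.95). Bach1, the repressor of Hmox1, had 1.46 and r = 0.0618 with the heme sum. None of the 8 detected in at least 10% of cells reached 0.1 with the heme sum, where 2.51% of all genes did. Of the heme uptake and export genes, Cd163, Hpx, Flvcr1 and Flvcr2 were not in the table, nor was Alas2, the heme synthesis enzyme of red cells.

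Of 32 other iron genes 23 were in the table and 10 were detected in at least 10% of cells. Pcbp2 (5.73 per 10000) and Pcbp1 (3.38), iron chaperones that load ferritin, and Trf (5.44), which encodes transferrin, led them. None of the 10 reached 0.1 with the iron sum, and Pcbp1 had 0.112 with the heme sum. The oxidases Cp and Heph, which work with ferroportin, were not in the table, and neither were Steap4, Cybrd1, Hamp2, Bmp6, Ftmt, Lcn2 and Ltf.

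Of 32 other NRF2 pathway genes 31 were in the table and 23 were detected in at least 10% of cells. They were led by Prdx1 (29.9 per 10000), Gpx1 (13.6) and Txn1 (13.4), antioxidant enzymes. With the heme sum 5 of the 23 had r of at least 0.1, namely Sqstm1 (0.192), Txnrd1 (0.173), Gclc (0.132), Slc7a11 (0.115) and Maff (0.109). Srxn1, detected in 9.59% of cells, had 0.106. Gsta3 was not in the table. With the zinc sum 3 did, Slc7a11 (0.151), Sqstm1 (0.147) and Txnrd1 (0.109). With the iron sum 3 others did, Gstm1 (0.141), Prdx1 (0.133) and Txn1 (0.114). Of all genes, 2.51% reached 0.1 with the heme sum, 0.946% with the zinc sum and 2.46% with the iron sum. No gene of these 4 lists detected in at least 10% of cells had r of -0.1 or less with a sum, which 0.199% of all genes had with the zinc sum, 0.174% with the heme sum and 0.870% with the iron sum. The sum of the list, in which Prdx1 had 21577 of 71860 UMIs, had r = 0.203 with the iron sum. It had 0.121 with the zinc sum and 0.0263 with the heme sum. The median r over the 23 was 0.0364 with the heme sum, 0.0232 with the zinc sum and 0.0392 with the iron sum.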

How the data were processed

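Single-cell 3' libraries (10x Genomics, v2) of 1 sample were used. The authors aligned reads to mm10 and counted UMIs with Cell Ranger 2.1, and deposited natural log values, ln(1 + UMIs per 10000 UMIs of the cell), made with Seurat (also named in the submitters' processing notes). The authors also deposited a scaled score per gene and cell, with UMIs per cell and mitochondrial content regressed out. Undoing the log gave steps of 1 UMI per cell, and 100% of values above 0 were whole numbers of steps (within 0.01), which were used as UMI counts. No doublet caller was run. The methods limit cells to 2500 genes.

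Python 3.11.15 with numpy 2.4.6 and scipy 1.17.1 was used. Intervals are 95%, Poisson for levels, conditional binomial for ratios and Wilson for shares. Correlations without counting variance need 1000 UMIs per gene and can exceed 1 by sampling error. The text names all members, the 5 genes with the highest r with each member, and of each pathway list the 3 with most UMIs, those with r of at least 0.1 and genes not in the table. The statistics were tested on simulated data. Positions are from GENCODE M21 of GRCm38, the build of mm10. The members and lists were chosen with earlier results of these data known. With 1 library, no comparison between mice was made.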

Additional observations from a re-analysis of the deposited data

How the results depend on the processing

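The limits are 1 library, counting intervals that leave out the spread between mice, and sparse genes. With 19 to 494 UMIs, the r of Slc40a1, Slc30a1 and Blvrb is lowered, so a weak relation may be missed. No paired analysis was possible because there is 1 sample. None of the 8 pairs with r of at least 0.1 changed sign under the settings run, which for all but Mt1 and Mt2 were added after seeing the data. The number of pairs with r of at least 0.1 was 8 or 9 under each setting it was counted for, and the correlation of heme and iron sums and the count of 0 for proliferation genes stayed within their limits. The share of UMIs on the 10 genes was 3.77% as a mean over cells, 3.89% within 5% mitochondrial UMIs and 3.82% in cells with at least 2000 UMIs. The r of Mt1 and Mt2 was 0.320 with a constant of 0.1, 0.463 as Spearman's rho, 0.339 with 2000 UMIs drawn, 0.870 without counting variance and, added after seeing the data, 0.266 outside the 10% of cells highest in the pair. Zinc and heme sums had 0.145 in the scaled scores and 0.345 without counting variance; zinc and iron sums had 0.163 with 2000 UMIs drawn and 0.121 in the scaled scores. Members past 1.5-fold numbered 1 in the top 10% of cells and 0 in cells with at least 3 UMIs on the cytokine list, and 2 for MHC class II genes with 2000 UMIs drawn. Slc39a1 and Actb, added after seeing the data, had between 0.490 and 0.582, and 0.929 without counting variance. The cause of these moves was not tested.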

Other observations

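Some genes at the other end of the correlations, chosen after their values were seen, were shared among Mt1, Mt2 and Hmox1. Txnip, which encodes an inhibitor of thioredoxin, had the lowest r of the 4023 genes with Mt1 (-0.195) and with Mt2 (-0.152), and the third lowest with Hmox1 (-0.164). Tsc22d3, a glucocorticoid-induced gene, had -0.148 with Mt1 and -0.113 with Mt2. Lyz2, the macrophage lysozyme, had -0.172 with Hmox1 and -0.119 with Mt2, and Cd9 had -0.172 with Hmox1.

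Ferritin had its lowest r with mitochondrial transcripts, mt-Co1 at -0.236 with Fth1 and -0.255 with Ftl1. Among genes outside the mitochondrion, Abcg1, a cholesterol exporter and marker of AMs, had -0.197 with Fth1, and Ear2, a ribonuclease gene and marker of AMs, had -0.191 with Ftl1. Of the 15 AM markers detected in at least 10% of cells, 4 had r of -0.1 or less with the iron sum, namely Ear2 (-0.203), Abcg1 (-0.164), Ear1 (-0.120) and Mrc1 (-0.118), where 0.870% of all genes did. With the zinc sum Abcg1 had -0.135 (0.199% of all genes at -0.1 or less), and with the heme sum Chil3 had -0.139 (0.174%) and Lpl 0.131. All these values share the 1 library and its depth.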
